A study of Mus musculus with 12 samples.

Results

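The unfolded protein response (UPR) and the entry of proteins into the endoplasmic reticulum (ER) were followed through 32 genes in mouse plasmacytoid dendritic cells (pDCs) exposed to CpG oligodeoxynucleotides. The genes were chosen by name for their roles in this system, not by a cutoff on their values. Earlier results of these data were known when they were chosen. All 32 were found among the 21573 genes of the deposited expression table. All 32 also reached 1 FPKM (an expression value scaled to transcript length and library size) in at least 3 libraries, the minimum met by the 11641 genes that were tested. By role they were 5 stress sensors and their transcription factors, 13 chaperones and folding enzymes, 7 genes of ER-associated degradation, 3 genes of protein translocation and 4 targets of the transcription factor Atf4.

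The study compared pDCs from the bone marrow of BALB/c mice, 56 to 63 days old, after 24 h of culture. CpG-A cells, CpG-B cells and CpG-C cells had the named oligodeoxynucleotide class at 0.5 µM and control cells had none, with 3 RNA-seq libraries in each of the 4 groups. CpG oligodeoxynucleotides are synthetic DNA ligands of the endosomal receptor TLR9. CpG-A joins a phosphodiester palindrome to phosphorothioate poly-G tails, CpG-B is linear with a phosphorothioate backbone throughout, and CpG-C combines that backbone with a palindrome. The cells were sorted before RNA extraction, but the labels give neither the gate nor the origin of the replicates, so p-values measure only the spread between these libraries, which may be technical.

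Unfolded proteins in the ER are sensed by Ern1, Eif2ak3 and Atf6. Ern1 splices the Xbp1 mRNA, Eif2ak3 slows translation while favouring that of Atf4, and Atf6 is cut to release a transcription factor. Together these arms raise chaperones, degradation factors and, through Atf4, amino acid and stress genes. Secretory cells depend on this system. In mice, pDCs, which can secrete large amounts of type I interferon, need Xbp1 for their normal development and survival.

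Depth could only be estimated, at 22900000 to 27000000 fragments per library, because the table holds no counts. The number of genes with at least 1 FPKM lay between 7437 (CpG-A replicate 1) and 10622 (control replicate 3). All 12 pDC markers listed for the check were detected, which include Siglech, Tcf4 and Tlr9. In CpG-A, CpG-C and control cells the library numbered 1 had the fewest genes at 1 FPKM and the lowest weight when weights were estimated from residuals. Values without the 4 libraries numbered 1 are therefore given for the members called.

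With CpG-B, 5 of 13 ER chaperones and folding enzymes rose against control. Of the 32 genes, 5 rose and 0 fell at an adjusted p below 0.05 in limma's moderated test on log2(FPKM + 1), adjusted by Benjamini-Hochberg over the 11641 genes. All 5 were among the 13 chaperones and folding enzymes: Hspa5, Creld2, Sdf2l1, Pdia3 and Calr. Of all genes tested, 3.26% were called higher and 2.48% lower in that comparison (5.75% in either direction). The 15.6% of members called higher was a larger share than this background. These shares are not like for like, because the members were chosen with earlier results of these data known. Their median within-group SD on the log2 scale was also smaller, 0.64 against 1.01 for all genes tested. The median log2 difference was 1.24 for the chaperones and folding enzymes, 0.54 for all 32 members and -0.25 for all genes tested.

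Hspa5 (BiP), the main Hsp70 chaperone of the ER lumen, reached 654, 1051 and 853 FPKM in the 3 CpG-B libraries, against 136, 252 and 269 FPKM in the control libraries. The groups did not overlap, and control replicate 1 was the lowest of the 12 libraries. The log2 difference was 1.99 (SE 0.33, 95% interval 1.28 to 2.70, adjusted p = 0.00231). Creld2, an ER protein with disulfide isomerase activity, measured 318, 439 and 378 FPKM with CpG-B and 116, 84.5 and 86.1 FPKM in control cells. Its libraries were tightly grouped in both conditions and did not overlap (log2 difference 1.98, SE 0.35, adjusted p = 0.00315). Hspa5 and Creld2 stayed below 0.05 with any of the 12 libraries left out, with adjusted p up to 0.0154 and 0.0204, and without the 4 libraries numbered 1 (0.00716 and 0.00818).

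Sdf2l1, a partner of the ER Hsp40 proteins, had the largest difference of the 5, with 218, 547 and 542 FPKM in CpG-B libraries and 30.2, 85.9 and 144 FPKM in control libraries. CpG-B replicate 1 and control replicate 1 were each the low library of their group, and the groups did not overlap. The log2 difference was 2.46 (SE 0.58, adjusted p = 0.0214). The call was lost when the library left out was CpG-B replicate 2 (adjusted p = 0.0939) or 3 (0.0858), or control replicate 1 (0.0784) or 2 (0.0516). Without the 4 libraries numbered 1 it held (log2 difference 2.28, adjusted p = 0.0149).

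Pdia3, a disulfide isomerase that works on glycoproteins, measured 358, 362 and 545 FPKM in CpG-B libraries and 179.8, 138 and 180.4 FPKM in control libraries. Its values were close within control cells, and CpG-B replicate 3 stood above the other CpG-B libraries (log2 difference 1.32, SE 0.35, adjusted p = 0.0394). Calr, the lectin chaperone calreticulin, measured 594, 581 and 813 FPKM with CpG-B and 279.6, 206 and 366 FPKM in control cells. Neither gene overlapped between the groups, but both calls were near the threshold (Calr log2 difference 1.24, SE 0.35, adjusted p = 0.0495). Pdia3 passed only when the library left out was replicate 1 or 2 of CpG-A or CpG-C, and Calr only when it was replicate 1 or 2 of CpG-A. The highest adjusted p with 1 library left out was 0.163 for Pdia3 and 0.191 for Calr, and without the 4 libraries numbered 1 it was 0.0654 for Pdia3 and 0.0772 for Calr.

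**Figure D1:**
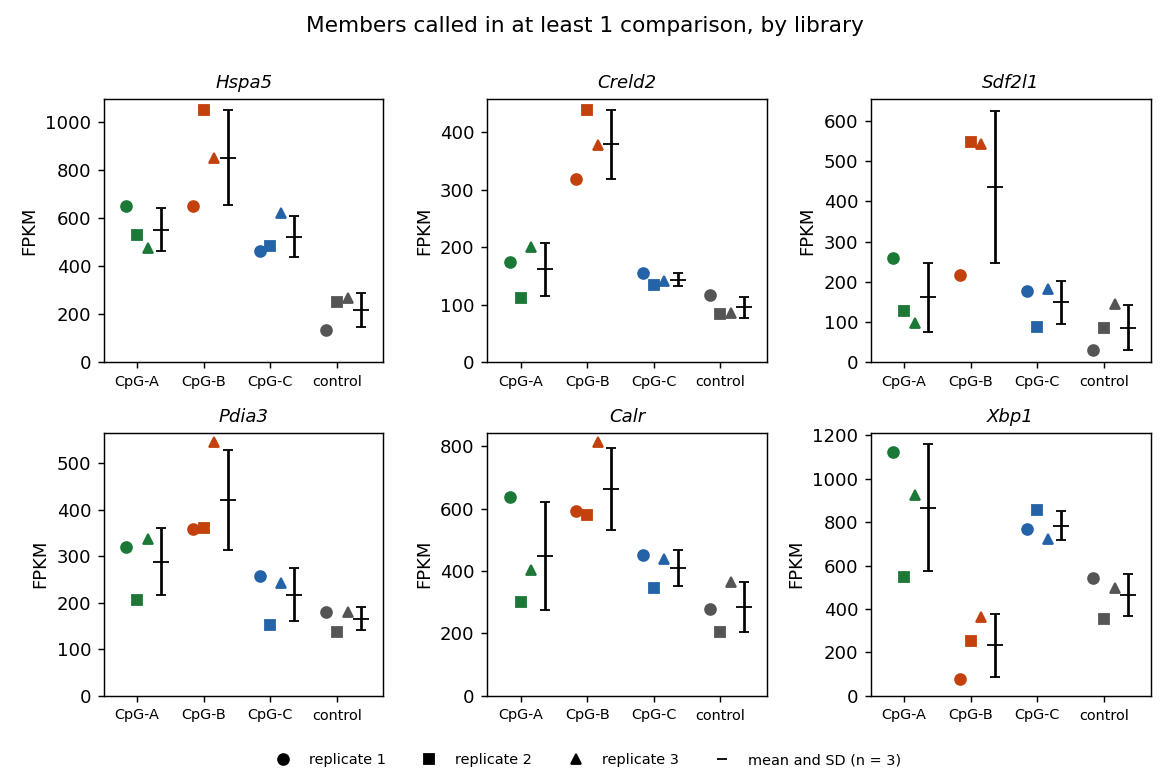
FPKM of Hspa5, Creld2, Sdf2l1, Pdia3, Calr and Xbp1 in each library (points, 1 marker shape per replicate number) with the group mean and SD (n = 3), for CpG-A, CpG-B, CpG-C and control. The CpG-B points of the 5 chaperones and folding enzymes lie above all control points, while those of Xbp1 lie below all CpG-A and CpG-C points.

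The other 8 chaperones and folding enzymes did not pass the test with CpG-B. Pdia4, a disulfide isomerase, came nearest, with 34.1, 91.6 and 117 FPKM in CpG-B libraries and 14.5, 12.2 and 25.3 FPKM in control libraries (log2 difference 2.05, adjusted p = 0.0517). Dnajb11, an Hsp40 partner of Hspa5, measured 95.7, 128 and 130.1 FPKM with CpG-B and 23.3, 52.3 and 52.1 FPKM in control cells (1.52, adjusted p = 0.078). Neither gene's groups overlapped. Counting the genes called, 9 of the 13 chaperones and folding enzymes had all CpG-B libraries above all control libraries, as did 11 of all 32 members and 10.1% of all genes tested. Pdia6, another disulfide isomerase, and Manf, a secreted ER protein, were also among the 9, with log2 differences of 1.07 and 0.89.

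The remaining chaperones and folding enzymes overlapped between CpG-B and control. Canx, the membrane-bound lectin chaperone that pairs with Calr, differed by 0.12 on the log2 scale (95% interval -0.62 to 0.85). Hyou1, a large Hsp70-like protein and exchange factor for Hspa5, was among the lowest of the branch, at 9.96 to 29.7 FPKM with CpG-B and 13.1 to 20.9 FPKM in control cells. Dnajb9, an Hsp40 protein that represses Ern1, differed by -0.19 (95% interval -1.32 to 0.95), and Dnajc3, an inhibitor of eIF2 kinases that also acts as an Hspa5 partner, by 0.54 (95% interval -0.56 to 1.64).

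The sequence just upstream of the start was searched because many ER chaperone genes carry an ER stress response element (ERSE), read by Atf6 and Xbp1 together with the factor NF-Y. RefSeq promoter windows on GRCm38.p6, the build of mm10, run from 250 bases before to 50 bases after the RefSeq start and were available for 27 of the 32 members. For 20 of these members the RefSeq start is also the start in the deposited table. The element, CCAAT and CCACG with 9 free bases between them, searched on both strands, was present in 39 of 32851 windows (0.119%) and in those of 7 members. Each is given 5′ to 3′ on the strand that reads CCAAT first, with the fixed letters in capitals.
Hspa5: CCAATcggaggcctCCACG
Creld2: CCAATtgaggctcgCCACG
Calr: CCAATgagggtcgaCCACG
Canx: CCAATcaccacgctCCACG
Pdia6: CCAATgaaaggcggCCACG
Dnajc3: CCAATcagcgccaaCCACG
Syvn1: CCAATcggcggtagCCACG

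The first 3 of these genes rose with CpG-B, and the other 4, of which Syvn1 is a ubiquitin ligase of ER-associated degradation, did not pass the test. Among 108 further listed genes with a window, 3 held the element: Derl3, Ero1lb and, with a match on each strand, Hsp90b1. None of these was called with CpG-B. The element lay 65 to 47 bases before the start in Hspa5, and 126 to 108 bases before it in Creld2 and 162 to 144 bases before it in Calr, both on the strand opposite to the gene. With CCAC in place of CCACG the element was in 0.365% of windows and in 11 members, which by construction include the 7 above and add Pdia3, Pdia4, Herpud1 and Derl2. The related element ERSE-II, ATTGG and CCACG with 1 free base between them, was in 0.0365% of windows and in Herpud1 and Dnajb11. The Xbp1-binding core TGACGTGG was in 0.676% of windows and in 0 members, and TTGCATCA, a form of the element bound by Atf4 with C/EBP factors, was in 0.895% of windows and, among the members, in Herpud1. The windows of Sdf2l1 and Xbp1 held none of these letters. These matches describe sequence only.

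Of the genes that rose, only those with the full ERSE are printed, so Sdf2l1 and Pdia3 are left out. Canx, Pdia6, Dnajc3 and Syvn1, which held the ERSE without passing the test, are left out too. Whether the element goes with a rise was not tested. The 250 bases before the start of Hspa5, Creld2 and Calr are given in the direction of the gene with the ERSE in capitals, beside those of Xbp1, a gene that did not rise with CpG-B. They are Hspa5 at chr2:34771840-34772089 on the plus strand, Creld2 at chr15:88819396-88819645 on the plus strand, Calr at chr8:84846932-84847181 on the minus strand and Xbp1 at chr11:5520391-5520640 on the plus strand.
Hspa5: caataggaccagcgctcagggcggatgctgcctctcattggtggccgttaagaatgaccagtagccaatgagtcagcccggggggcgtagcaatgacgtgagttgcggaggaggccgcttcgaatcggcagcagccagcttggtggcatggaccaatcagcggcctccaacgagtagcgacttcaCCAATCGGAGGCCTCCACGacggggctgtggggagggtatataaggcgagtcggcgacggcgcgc
Creld2: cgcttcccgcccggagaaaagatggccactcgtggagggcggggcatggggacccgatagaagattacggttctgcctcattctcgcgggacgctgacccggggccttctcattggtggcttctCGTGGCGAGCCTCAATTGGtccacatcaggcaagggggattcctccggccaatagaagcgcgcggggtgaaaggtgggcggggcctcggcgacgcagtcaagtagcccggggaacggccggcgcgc
Calr: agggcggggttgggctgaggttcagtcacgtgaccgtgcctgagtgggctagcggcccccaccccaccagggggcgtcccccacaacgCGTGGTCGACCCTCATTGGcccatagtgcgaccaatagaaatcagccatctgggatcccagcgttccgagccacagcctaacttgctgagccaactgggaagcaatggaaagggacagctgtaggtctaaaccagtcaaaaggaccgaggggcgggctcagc
Xbp1: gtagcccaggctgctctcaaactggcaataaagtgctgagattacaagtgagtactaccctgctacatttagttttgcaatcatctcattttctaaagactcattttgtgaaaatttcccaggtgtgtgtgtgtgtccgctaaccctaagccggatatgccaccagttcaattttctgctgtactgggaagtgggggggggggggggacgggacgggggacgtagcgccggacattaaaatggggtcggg

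G and C made up 62.4% of these bases in Hspa5, 66.0% in Creld2, 62.0% in Calr and 50.4% in Xbp1.

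For each of the 5 genes that rose with CpG-B, the means of CpG-A and CpG-C lay between those of CpG-B and control, and no member passed the test against control with either class. By limma's test with adjustment over all genes, 0 of 32 members were called with CpG-A (5 at an unadjusted p below 0.05) and 0 of 32 with CpG-C (4 at an unadjusted p below 0.05). The backgrounds were 1.47% of all genes called with CpG-A (1.05% higher, 0.421% lower) and 1.86% with CpG-C (1.34% higher, 0.524% lower). Hspa5 measured 650.5, 533 and 475 FPKM with CpG-A, and 462, 486 and 622 FPKM with CpG-C. All 6 of these libraries lay above the 3 control libraries, at log2 differences of 1.38 for CpG-A (SE 0.33, adjusted p = 0.0559) and 1.30 for CpG-C (SE 0.33, adjusted p = 0.0646). With FPKM divided by median-of-ratios size factors both passed (adjusted p = 0.0272 for CpG-A and 0.0354 for CpG-C). Deviations from group means correlated weakly between same-numbered libraries of different groups (0.0607 to 0.17). With the replicate number as a block Hspa5 passed with CpG-A (adjusted p = 0.0308, 1 of 32 members and 285 of all genes called). It also passed with CpG-C (adjusted p = 0.0357, 1 of 32 members and 310 of all genes called). The median-of-ratios scaling raised the median log2 difference of all genes by 0.157 with CpG-A, 0.256 with CpG-B and 0.147 with CpG-C.

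Libraries of 5 members with CpG-A and of 10 members with CpG-C lay wholly above the control libraries, against 5.78% and 6.64% of all genes tested. Hspa5, Dnajb11, Xbp1 and Edem1 were in both groups. Edem1, which directs misfolded glycoproteins to degradation, measured 98.4, 22.4 and 31.3 FPKM with CpG-A, 54.1, 50.9 and 31.7 FPKM with CpG-C, and 16.4, 10.7 and 17.9 FPKM in control cells. It was also above control with CpG-B (28.1, 44.8 and 37.0 FPKM). Its log2 differences were 1.43 with CpG-A, 1.24 with CpG-B and 1.53 with CpG-C, with adjusted p of 0.311, 0.269 and 0.26. The 3 comparisons share the control libraries. The median log2 difference over the 32 members was 0.62 with CpG-A and 0.58 with CpG-C, where over all genes tested it was -0.27 and -0.22.

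**Figure D2:**
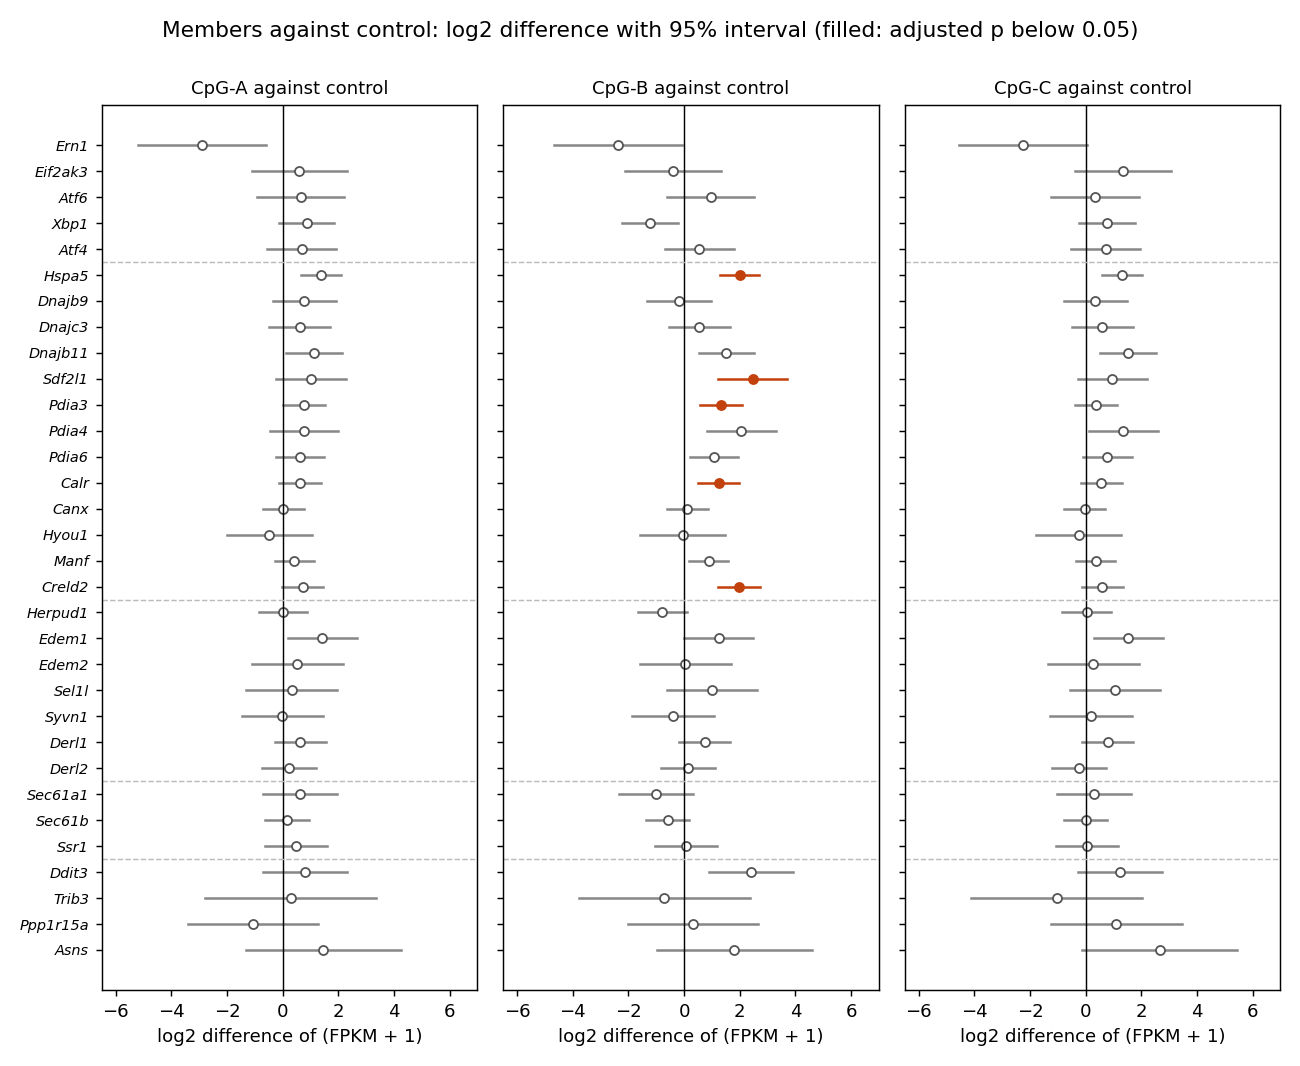
Log2 difference from control on the log2(FPKM + 1) scale (x axis) with its 95% interval for each of the 32 genes (y axis, ordered by role), for CpG-A, CpG-B and CpG-C. Filled points passed an adjusted p of 0.05: the 5 chaperones and folding enzymes with CpG-B and none with CpG-A or CpG-C.

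The summed FPKM of the 13 chaperones and folding enzymes was 3780.3, 2371 and 2627 with CpG-A, 3239, 4765 and 5099 with CpG-B, 2715, 2447 and 3005 with CpG-C, and 1521, 1729.9 and 2011 in control cells. All 9 CpG libraries thus lay above the 3 control libraries in this sum, and CpG-B replicates 2 and 3 were the highest. The 7 degradation genes summed to 611, 409.6 and 507 FPKM with CpG-A, 273, 519.97 and 431 FPKM with CpG-B, 482, 554 and 496 FPKM with CpG-C, and 473, 340.1 and 442 FPKM in control cells. For this branch CpG-A and CpG-B overlapped with control, while the 3 CpG-C libraries lay above the control libraries, the lowest only just (482 against 473 FPKM).

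Xbp1, the transcription factor of the Ern1 arm, was lowest with CpG-B. It measured 1124, 549.9 and 927 FPKM with CpG-A, 79.3, 252 and 366 FPKM with CpG-B, 771, 856 and 724 FPKM with CpG-C, and 541, 356 and 496 FPKM in control cells. Every CpG-B library was below every CpG-A and CpG-C library, and CpG-B replicate 3 was just above the lowest control library. Xbp1 was higher with CpG-A than with CpG-B (log2 difference 2.09, SE 0.47, 95% interval 1.09 to 3.09, adjusted p = 0.0284) and lower with CpG-B than with CpG-C (log2 difference -2.00, SE 0.47, adjusted p = 0.0494). Against control the differences were 0.86 with CpG-A, -1.23 with CpG-B and 0.77 with CpG-C, with adjusted p of 0.462, 0.159 and 0.528. These values count all Xbp1 mRNA, and the spliced form that encodes the active factor is not separated.

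Between CpG-A and CpG-B the Xbp1 call did not hold when CpG-A replicate 1 (adjusted p = 0.0955), CpG-A replicate 3 (0.0941) or CpG-B replicate 1 (0.111) was left out, or without the 4 libraries numbered 1 (log2 difference 1.23, adjusted p = 0.146). The call between CpG-B and CpG-C held in 1 of 12 such fits, without CpG-B replicate 3 (adjusted p = 0.0242), and was otherwise lost, with adjusted p up to 0.216. Without the 4 libraries numbered 1 it was -1.37 (adjusted p = 0.116). The sign was the same in each of these fits.

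Set beside each other, Hspa5 and Xbp1 separated CpG-B from the other groups in a ratio that was chosen after the values were seen and was not tested. Hspa5 FPKM divided by Xbp1 FPKM was 0.579, 0.969 and 0.512 with CpG-A, 8.25, 4.17 and 2.33 with CpG-B, 0.600, 0.568 and 0.859 with CpG-C, and 0.252, 0.708 and 0.542 in control cells. Both values are per length, so only CpG-B libraries held more Hspa5 than Xbp1.

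**Figure D3:**
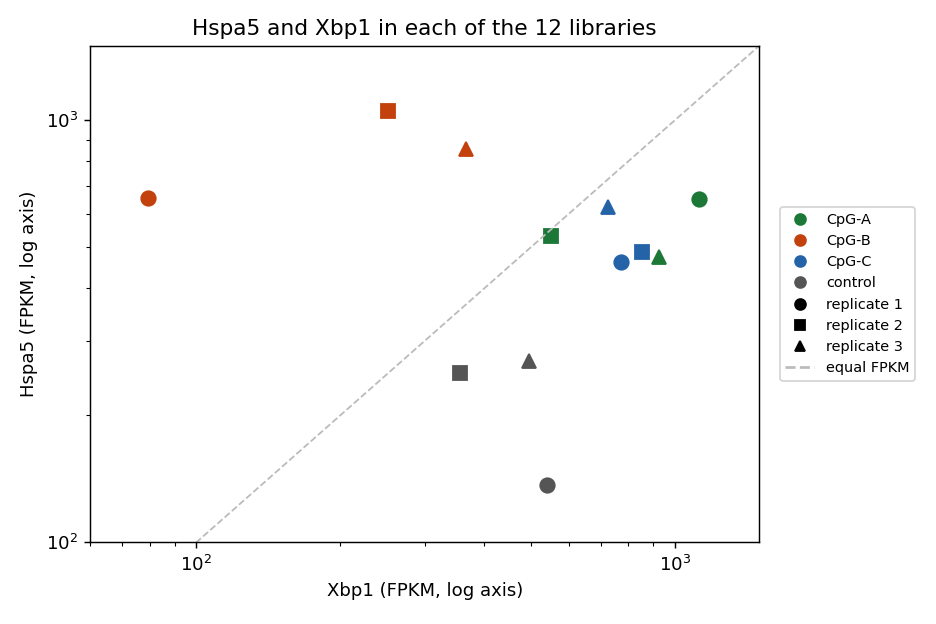
Hspa5 FPKM (y axis, log scale) against Xbp1 FPKM (x axis, log scale) in each of the 12 libraries, coloured by group, with 1 marker shape per replicate number and a dashed line of equal FPKM. The 3 CpG-B libraries lie above the line and the other 9 below it.

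The sensors themselves were low. Within groups Ern1 varied most of them on the log2 scale (SD 1.38), while Eif2ak3 (0.71) and Atf6 (0.88) were below the median of all genes tested (1.01). Ern1 (IRE1), the kinase and nuclease that splices Xbp1, measured 0.12, 3.31 and 1.87 FPKM with CpG-A, 14.5, 0.30 and 1.11 FPKM with CpG-B, 2.97, 4.32 and 1.54 FPKM with CpG-C, and 42.0, 26.7 and 3.89 FPKM in control cells. Its highest values were in control replicates 1 and 2, and only the CpG-A libraries lay wholly below control. The log2 differences from control were -2.91 with CpG-A (SE 1.08, adjusted p = 0.261), -2.37 with CpG-B (adjusted p = 0.254) and -2.26 with CpG-C (adjusted p = 0.408), and none passed.

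Eif2ak3 (PERK), the eIF2 kinase of the ER, measured 4.92, 8.08 and 5.75 FPKM with CpG-A, 4.14, 1.2 and 3.05 FPKM with CpG-B, 9.06, 20.2 and 6.93 FPKM with CpG-C, and 1.14, 6.74 and 5.27 FPKM in control cells. CpG-C libraries were all above control and all above CpG-B, without passing the test (adjusted p = 0.522 against control). Atf6 measured 43.2, 15.2 and 10.3 FPKM with CpG-A, 13.6, 35.4 and 27.4 FPKM with CpG-B, 6.92, 20.4 and 23.9 FPKM with CpG-C, and 6.15, 23.2 and 11.1 FPKM in control cells. Its groups overlapped throughout. Cleavage of Atf6 and phosphorylation of Eif2ak3 are not visible in mRNA levels.

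Atf4, the transcription factor of the Eif2ak3 arm, measured 359, 127 and 189.7 FPKM with CpG-A, 215, 95.1 and 315 FPKM with CpG-B, 479.8, 127 and 153 FPKM with CpG-C, and 171, 78.9 and 152 FPKM in control cells. The groups overlapped, and the log2 differences from control were 0.69 with CpG-A, 0.55 with CpG-B and 0.73 with CpG-C. Ddit3 (CHOP), a pro-apoptotic transcription factor downstream of Atf4, was the highest of the 4 targets, with 555, 100.2 and 201 FPKM with CpG-A, 1017, 749 and 406 FPKM with CpG-B, 540.3, 164 and 302 FPKM with CpG-C, and 386, 67.4 and 78.2 FPKM in control cells. CpG-B libraries were all above control, with CpG-B replicate 3 only just above control replicate 1. The difference was 2.40 (SE 0.70, 95% interval 0.90 to 3.91, adjusted p = 0.0615), and without the 4 libraries numbered 1 it was 2.91 (adjusted p = 0.00669). It passed with 1 library left out where that was control replicate 1, CpG-A replicate 1 or CpG-A replicate 2, with adjusted p from 0.0126 to 0.216 over the 12 fits.

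This branch was marked by spread between replicates of a group. Ddit3 was highest in replicate 1 in all 4 groups, and Atf4 and Asns, the asparagine synthetase, in 3 of 4. Asns measured 23.3, 2.78 and 8.46 FPKM with CpG-A, 36.4, 0.09 and 42.6 FPKM with CpG-B, 44.9, 10.9 and 18.4 FPKM with CpG-C, and 10.7, 2.18 and 0.13 FPKM in control cells. Trib3, a pseudokinase that inhibits Akt, was at 39.6 FPKM in CpG-A replicate 1 and 34.2 FPKM in control replicate 1, and between 0 and 4.96 FPKM in the other 10 libraries. Ppp1r15a (GADD34), which restores translation by directing eIF2 dephosphorylation, lay between 0.13 and 18.1 FPKM. The median within-group SD on the log2 scale was 1.68 for the 4 Atf4 targets, 0.83 for the sensors and their transcription factors, 0.61 for the degradation genes, 0.50 for the chaperones and folding enzymes, 0.49 for the translocation genes and 1.01 for all genes tested. Ranks by replicate number describe libraries and give no order to the replicates.

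**Figure D4:**
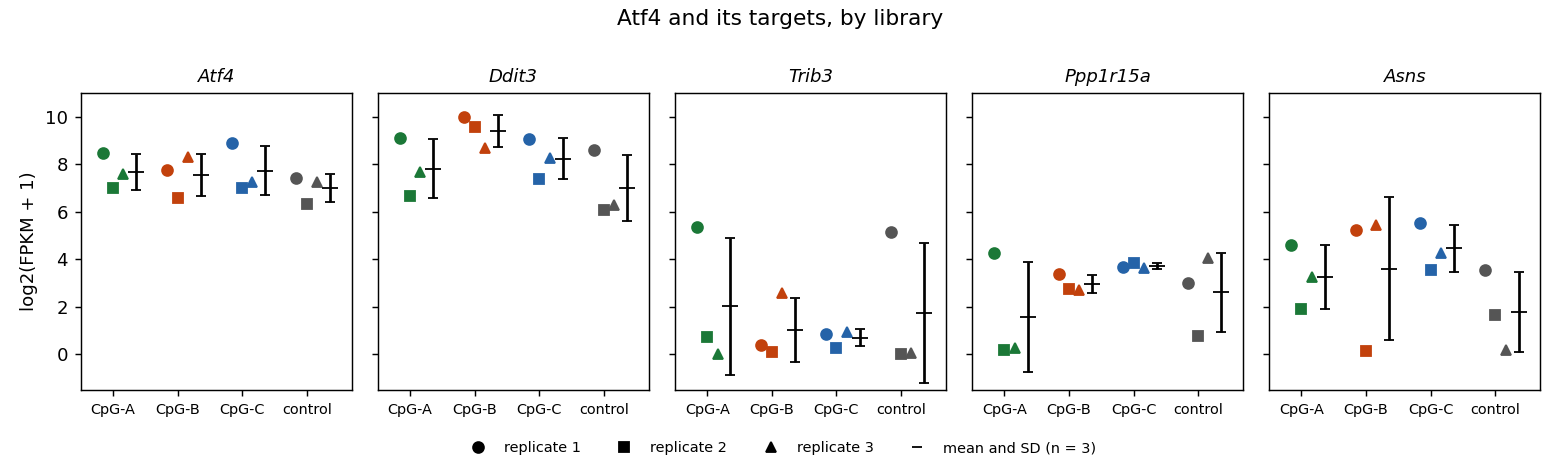
Log2(FPKM + 1) of Atf4 and the 4 Atf4 targets in each library (points, 1 marker shape per replicate number), by group, with the group mean and SD (n = 3). Replicate 1 is the highest point of Ddit3 in all 4 groups, and Trib3 is at 34.2 FPKM or more only in CpG-A replicate 1 and control replicate 1.

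The degradation genes as a branch gave 0 calls of 7 by limma in each of the 3 comparisons with control, with 1 gene, Edem1, at an unadjusted p below 0.05 each time. Herpud1, a membrane scaffold of the degradation complex, measured 321, 200.2 and 219 FPKM with CpG-A, 74.9, 227 and 157 FPKM with CpG-B, 203, 279 and 265 FPKM with CpG-C, and 285, 197 and 247 FPKM in control cells. CpG-B replicate 1 was the lowest library, and the difference of CpG-B from control was -0.79 (95% interval -1.66 to 0.09). Edem1 and Herpud1 thus had differences of opposite sign with CpG-B, and neither passed. The ubiquitin ligase Syvn1 (4.93 to 24.4 FPKM over the 12 libraries), its partner Sel1l (4.88 to 61.3 FPKM), the lectin-like Edem2 (6.62 to 75.4 FPKM) and the membrane proteins Derl1 (31.1 to 104 FPKM) and Derl2 (24.1 to 59.9 FPKM) overlapped between each class and control.

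The translocation genes held the most abundant member. Sec61b, the beta subunit of the Sec61 channel, ranked first of the 32 in all 4 groups, at 1528, 2806 and 2397 FPKM with CpG-A, 908, 1570.4 and 1512 FPKM with CpG-B, 1149, 2974 and 2128 FPKM with CpG-C, and 1551, 2257 and 2092 FPKM in control cells. Its lowest library was replicate 1 in all 4 groups. Sec61a1, the pore subunit, measured 85.8, 96.4 and 72.9 FPKM with CpG-A, 17.5, 25.6 and 39.4 FPKM with CpG-B, 38.8, 99.7 and 76.7 FPKM with CpG-C, and 17.9, 77.8 and 110.3 FPKM in control cells. CpG-A libraries were all above CpG-B libraries (log2 difference 1.66, 95% interval 0.33 to 2.99, adjusted p = 0.223). Ssr1, a subunit of the translocon-associated TRAP complex, lay between 17.3 and 49.4 FPKM. None of the 3 genes passed a test in any of the 6 comparisons.

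Between the classes, at the same dose and time, Xbp1 was the 1 member called among the 32 genes and 3 pairs compared. Background shares of genes called were 2.43% for CpG-A against CpG-B (0.988% higher, 1.44% lower), 1.35% for CpG-B against CpG-C (0.782% higher, 0.567% lower) and 0% for CpG-A against CpG-C. CpG-A libraries lay wholly above those of CpG-B for 3 members and below for 3, where the background was 9.49% and 10.2% of all genes. CpG-B libraries lay wholly above those of CpG-C for 6 members, all chaperones or folding enzymes, and below for 3, where it was 9.2% and 9.18%. Creld2 came next, lower with CpG-A (174, 111 and 200.01 FPKM) than with CpG-B by 1.25 on the log2 scale (difference -1.25, 95% interval -2.00 to -0.51, adjusted p = 0.0793). It was 156, 134 and 142 FPKM with CpG-C, and the difference of CpG-B from CpG-C was 1.38 (95% interval 0.64 to 2.13, adjusted p = 0.0725). Creld2 libraries of CpG-B did not overlap with those of either class. Hspa5 was also highest in CpG-B in every pairing of libraries, at -0.61 for CpG-A against CpG-B (95% interval -1.32 to 0.10, adjusted p = 0.453) and 0.69 for CpG-B against CpG-C (95% interval -0.02 to 1.4, adjusted p = 0.443). A difference of Hspa5 between the classes was thus not shown. With library weights, Creld2 was called lower with CpG-A than with CpG-B (adjusted p = 0.043) and higher with CpG-B than with CpG-C (0.0116). Sdf2l1 was called lower with CpG-A than with CpG-B with library weights (0.0429) and without the 4 libraries numbered 1 (log2 difference -2.28, adjusted p = 0.0329), the fit in which Xbp1 did not pass.

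CpG-A and CpG-C, the classes that carry palindromes, gave overlapping libraries for all 32 members, where 2.99% of all genes were wholly above and 4.1% below. By limma 0 of 32 members were called between them, 0 had an unadjusted p below 0.05, and of all genes tested 0 were called and 467 had an unadjusted p below 0.05. The median difference over the members was 0.04. The intervals still allow differences: for Hspa5 it was 0.08 (95% interval -0.63 to 0.79), for Xbp1 0.09 (-0.91 to 1.08), for Creld2 0.13 (-0.62 to 0.87) and for Ddit3 -0.42 (-1.92 to 1.08).

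**Figure D5:**
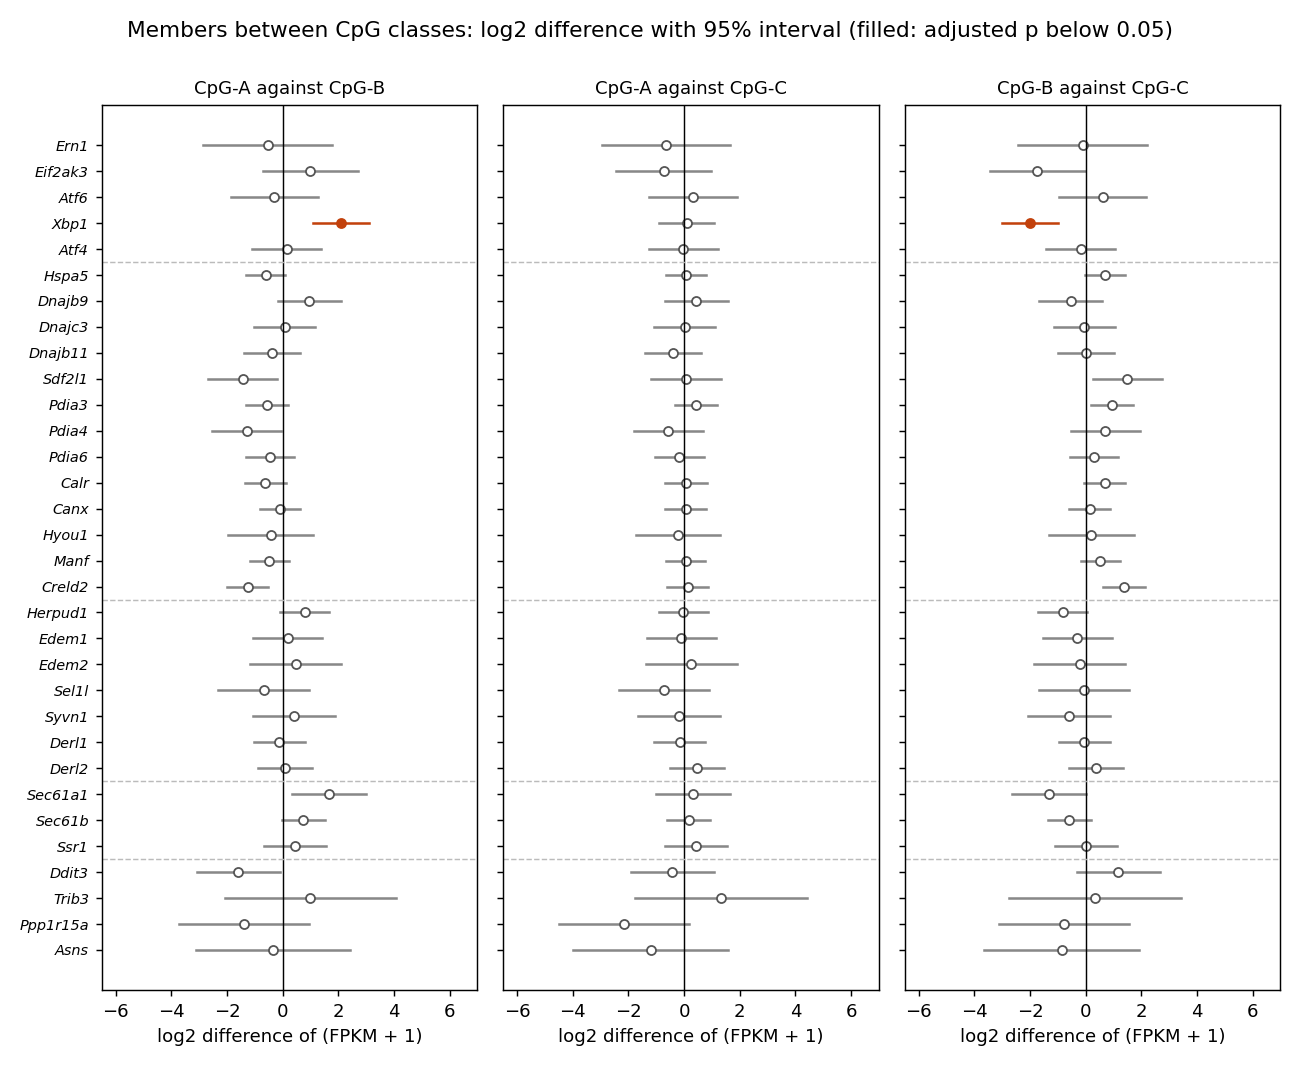
Log2 difference on the log2(FPKM + 1) scale (x axis) with its 95% interval for each of the 32 genes (y axis, ordered by role), for CpG-A against CpG-B, CpG-A against CpG-C and CpG-B against CpG-C. The filled points, which passed an adjusted p of 0.05, are Xbp1 against CpG-B in both other classes.

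Beyond the members, 138 further genes were listed by role, 13 of them cytosolic and mitochondrial heat shock proteins outside the ER pathway. Of the 138, 130 were tested. Called in them were 0 genes with CpG-A against control (8 at an unadjusted p below 0.05), 3 higher and 1 lower with CpG-B, and 1 higher and 0 lower with CpG-C. Over all these lists the share called higher with CpG-B, 2.31%, was below the 3.26% of all genes. Outside the heat shock list no gene was called higher with CpG-B. All 3 that rose with CpG-B came from the list of cytosolic and mitochondrial heat shock proteins, of which 10 were tested and 6 lay wholly above control, with a median log2 difference of 1.28 (1.24 for the ER chaperones and folding enzymes). They were Hsp90aa1 (log2 difference 1.51, adjusted p = 0.0123) and Hspa8 (1.43, 0.0368) of the cytosol and Hspe1 (1.31, 0.0452) of mitochondria. Hsp90aa1 measured 629, 560.1 and 460.5 FPKM in CpG-B libraries and 162, 230.2 and 187 FPKM in control libraries, which did not overlap. None of the 19 other translocon, signal peptidase and signal recognition genes, 10 oligosaccharyltransferase genes, 19 other ER folding enzymes, 15 other degradation genes and 21 tested genes of COPII export and ER retrieval was called in any of the 3 comparisons with control. Hsp90b1 (GRP94), the Hsp90 of the ER lumen, was looked at after the values were seen: it measured 343, 710.3 and 573 FPKM with CpG-B and 319, 501 and 457 FPKM in control cells, and was not called.

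Bloc1s1, a lysosome positioning subunit whose mRNA is cut by Ern1 in mouse cells under ER stress, was the gene that fell with CpG-B. It measured 173, 336 and 268 FPKM in CpG-B libraries and 972, 615 and 603 FPKM in control libraries, with no overlap (log2 difference -1.51, SE 0.33, adjusted p = 0.0119). It was higher with CpG-A (660.3, 773 and 619 FPKM) than with CpG-B (1.44, adjusted p = 0.0295). Hspe1 was lower with CpG-A than with CpG-B (-1.69, adjusted p = 0.0232). Atf3, an Atf4 target and stress factor, was 83.1, 19.7 and 22.7 FPKM with CpG-C and 0.10, 0.05 and 0 FPKM in control cells (5.04 on the log2(FPKM + 1) scale, adjusted p = 0.0438). Atf3 was not called with CpG-A or CpG-B against control. No comparison between classes called it either, so a difference of Atf3 between the classes was not shown.

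Markers of cell type moved with the CpG classes as well. Of the 12 pDC markers, 6 were called lower (Siglech, Runx2, Irf8, Tcf4, Spib and Cox6a2) and 0 higher with CpG-B than in control cells, where 2.48% of all genes were called lower. Their median log2 difference was -1.68, and their summed FPKM was 5140 to 17420 with CpG-B and 9348 to 16010 in control cells. Siglech, the surface marker of mouse pDCs, was 104, 253 and 230.1 FPKM with CpG-B and 2144, 3241 and 2777 FPKM in control cells. In bulk RNA, fewer cells of a type and less RNA per cell cannot be told apart. In the 2 comparisons in which Xbp1 was called, 6 of the 12 pDC markers were higher with CpG-A than with CpG-B (median 1.90, beside 2.09 for Xbp1; 0.988% of all genes were called higher) and 3 were lower with CpG-B than with CpG-C (median -1.89, beside -2.00 for Xbp1; 0.567% of all genes were called lower). Between CpG-A and control and between CpG-C and control, 0 of the 12 were called by limma, with 3 and 4 at an unadjusted p below 0.05. The 12 summed to 19040 to 22880 FPKM with CpG-A and 17490 to 22490 FPKM with CpG-C, above all control sums. Their median log2 differences from control were 0.15 and 0.25.

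Of the markers of other cells, 1 of 5 tested T cell markers (Cd8a, log2 difference 2.38) and 1 of 6 natural killer cell markers (Ncr1, 6.12) rose with CpG-B. Ncr1 also rose with CpG-A (5.05) and CpG-C (3.61), and Klrd1, another natural killer cell marker, fell with CpG-C (-2.97). T cell markers, 6 of 6 in the table, summed to 193 to 229 FPKM with CpG-A, 265 to 404 FPKM with CpG-B, 263 to 310 FPKM with CpG-C, and 122 to 134 FPKM in control cells, with Cd3e at 0 in all control libraries and up to 0.34 FPKM with CpG-B. Natural killer cell markers, 6 of 6, summed to 627 to 1444 FPKM with CpG-B and 431 to 815 FPKM in control cells. Of the 9 plasma cell markers 6 are in the table and 4 were tested, and their sums were 28.5 to 83.7 FPKM with CpG-B and 14.1 to 41.8 FPKM in control cells. None of these 4 was called with CpG-B by limma (3 at an unadjusted p below 0.05). Of the 4, 2 lay wholly above control (Prdm1 and Slamf7) and 1 wholly below, with log2 differences from -2.18 to 1.79. Jchain and Tnfrsf17 were at 0 in all CpG-B libraries.

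Markers of conventional dendritic cells and of monocytes and macrophages were lower in sum in each CpG class than in control cells. Conventional dendritic cell markers, 6 of 6, summed to 33.1 to 134 FPKM with CpG-A, 76.0 to 241 FPKM with CpG-B, 21.1 to 119 FPKM with CpG-C, and 332 to 529 FPKM in control cells. Among them Cd209a, with a mean of 322 FPKM in control cells, made up much of that control sum. Cd209a fell with CpG-A (-7.35), CpG-B (-7.88) and CpG-C (-6.88), while Batf3 rose with CpG-B (5.54). Of the 4 tested, 2 had a positive and 2 a negative difference with CpG-A and with CpG-B. With CpG-C, 1 was positive and 3 were negative. Xcr1 was at 0 in all control and CpG-B libraries. Monocyte and macrophage markers, 7 of 7, summed to 0.04 to 61.1 FPKM with CpG-A, 17.6 to 41.9 FPKM with CpG-B, 20.7 to 80.5 FPKM with CpG-C, and 139 to 485 FPKM in control cells, where Ccr2 alone had 108, 480 and 178 FPKM and Lyz2 was at 0. Of these markers 3 were tested, and limma called 0 with CpG-B, with 2 at an unadjusted p below 0.05. The part of the cells marked by these lists in the chaperone and Xbp1 values was not tested.

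The authors' deposited table carries its own q-values. In the authors' deposited table, of the 32 members, 28 had a q-value below 0.001 for CpG-A and control, 31 for CpG-B and control, and 28 for CpG-C and control. Its test is not given in the sources used here, so those counts are only set beside the calls above.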

How the data were processed

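RNA-seq of 12 pDC libraries was used in the form the authors deposited, a gene table of FPKM values with 2 decimals, 1 column per library per the file headers. Tools in the submitters' processing notes, in no order, are RSEM 1.2.8, Bowtie2 2.2.5, HISAT, StringTie and GATK; the genome build there is mm10. In the gene table are also the authors' deposited log2 ratios and q-values for pairs of groups, which entered no test, and a transcript length per the file headers, used only to estimate depth. Of the low FPKM values of short genes, 57.0% to 70.7% lay within 0.1 fragments of a whole number at the estimated depth, against 26.3% to 29.1% with lengths shuffled between genes, so the depth is rough and no counting interval is given. A broken line was left out.

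Values were changed to log2 after adding 1, so differences of low genes are understated. The genes tested, those reaching 1 FPKM in 3 or more libraries, were fitted with 1 mean per group over all 12 libraries in limma 3.58.1 (R 4.3.3), with moderation along a mean-variance trend (8 residual and 6.81 prior degrees of freedom). The median SE of a log2 difference over all genes was 0.841. An adjusted p below 0.05 (Benjamini-Hochberg over all genes tested) was called. An exact permutation test of 3 libraries against 3 cannot go below 0.1 and was not used. The procedure was run on simulated data with errors independent between libraries and changes larger than those called for Calr and Pdia3. That run gives no measure of error for the calls made here. Groups came from the labels. Members passing a test, and Hspa5, Xbp1, Ern1, Eif2ak3, Atf6, Atf4 and Ddit3, are given per library. Of further gene lists, up to 4 called genes each are named. Outside this rule, Pdia4 and Dnajb11 are given as near the threshold, and Hsp90b1 was looked at after the values were seen. Edem1, Herpud1, Asns, Sec61b and Sec61a1 passed no test and are also given per library outside this rule. Deviations from group means correlated at 0.106, 0.133 and 0.117 between the CpG-A and control libraries of the same number, each above 0.1, so that comparison is also given with the replicate block; no other pair of groups met this for all 3 numbers, and the labels do not say what a number marks. The members and lists were chosen with earlier results of these data known. Alternatives were another pseudocount, no filter, median-of-ratios scaling, the replicate number as a block, library weights and leaving out libraries.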

Additional observations from a re-analysis of the deposited data

How the results depend on the processing

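Hspa5 and Creld2 against control with CpG-B passed under all alternatives run, at log2 differences of 1.68 to 2.34 and 1.86 to 2.33. Of the 7 called differences of members, 5 lost the call in at least 1 of the 18 other settings and 0 changed sign, and 8 others gained a call in at least 1. The number of members called with CpG-B was 5, and became 2 with no filter on low values and 8 with median-of-ratios scaling or library weights; the cause was not tested. With CpG-A it was 0 and became 1 (Hspa5) with that scaling, and with CpG-C 1 (Hspa5) with that scaling or library weights. For CpG-A against CpG-B the 1 member (Xbp1) became 0 with no filter and 3 with library weights (Xbp1, Sdf2l1 and Creld2), and was Sdf2l1 without the 4 libraries numbered 1. For CpG-B against CpG-C the 1 member became 0 with a pseudocount of 0.1, no filter, scaling or without the 4 libraries numbered 1, and 2 with library weights.

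Over all genes, no filter gave 102 calls with CpG-A (against 171), 440 with CpG-B (against 669) and 118 with CpG-C (against 217), and between classes 157 for CpG-A against CpG-B (against 283) and 92 for CpG-B against CpG-C (against 157). Library weights gave 1063 with CpG-B, 406 with CpG-C, 509 for CpG-A against CpG-B and 587 for CpG-B against CpG-C. Without the 4 libraries numbered 1, CpG-A gave 110. Median-of-ratios scaling gave 204 with CpG-A, 673 with CpG-B and 222 with CpG-C, and 291 for CpG-A against CpG-B and 172 for CpG-B against CpG-C.

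With each library left out in turn, the number of members called ranged from 2 to 7 with CpG-B, from 0 to 1 for CpG-A against CpG-B and from 0 to 1 for CpG-B against CpG-C, and was 0 with CpG-A and CpG-C against control. Over all genes the ranges were 120 to 186 with CpG-A, 343 to 764 with CpG-B, 108 to 239 with CpG-C, 62 to 356 for CpG-A against CpG-B, 0 to 2 for CpG-A against CpG-C and 37 to 166 for CpG-B against CpG-C. Where a group then held 2 libraries, the spread was shared with the other groups.

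Replicate numbers are shared by the groups, but the labels do not say that a number marks a common animal or day. Deviations of same-numbered libraries correlated at 0.0607 to 0.17, those of others at -0.131 to 0.029, so each library correlated best with its own number, a hint from the data only. With the replicate block, members called were 1 with CpG-A, 7 with CpG-B, 1 with CpG-C, 1 for CpG-A against CpG-B, 0 for CpG-A against CpG-C and 2 for CpG-B against CpG-C, gaining Hspa5 with CpG-A (adjusted p = 0.0308) and CpG-C (0.0357), Pdia4 (0.0276) and Ddit3 (0.00349) with CpG-B, and Creld2 for CpG-B against CpG-C (0.0464). All genes called were 285, 886, 310, 434, 0 and 276 in that order of comparisons. Median-of-ratios scaling moved the median difference of all genes by -0.105 for CpG-A against CpG-B and 0.113 for CpG-B against CpG-C. The SE of a log2 difference reached 1.08 for Ern1 and 1.44 for Trib3.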
